A study of Mus musculus with 21 samples.

Results

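S-epsilon joins were the 209 junctions whose prey end lay in the ε unit, chr12:114508500-114515999 of the mm9 build, out of 40530 junctions read in all (0.516%). The members were chosen by position alone, and the switch repeats of the unit, Sε, span chr12:114513000-114515999. They came from CSR-HTGTS-seq of CH12F3 cells, a murine lymphoma line of B cells whose usual switch is to IgA. The method reads the sequence (the prey) joined to a fixed broken end (the bait), here at the 5′ end of Sμ. The series title asks what chromatin loop extrusion does in class switching. All cells had been stimulated for 72 h with anti-CD40, IL4 and TGF-β, and every genotype carried a deletion from Sμ to Sα on the non-coding IgH allele. NCdel (6 libraries) carried that deletion only. Iadel (6 libraries) also lacked Iα, from which germline transcription of Sα starts. i3CBEc (3 libraries) carried 3 inserted CTCF-binding elements (CBEs) in the convergent orientation, with Iα present. Iadel-i3CBEc (3 libraries) combined the Iα deletion with the 3 CBEs, placed downstream of Cγ2a. i3CBEc-3CBEdel (3 libraries) carried the insertion and lacked the 3′CBEs, the CTCF sites beyond the last constant gene. The labels do not say whether libraries of a genotype came from separate clones or cultures, so p-values measure only the spread between these libraries, which may be technical.

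Class switching joins Sμ to a downstream switch region and so places another constant gene, Cε for IgE, behind the variable region. The enzyme AID starts the breaks, prefers AGCT and similar motifs, and acts on switch regions that are being transcribed from their I promoters. Sε lies between Cγ2a and Sα, and switching to IgE is known as an IL4-dependent event. CTCF bound to its sites can stop the cohesin that extrudes chromatin loops.

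The unit was first compared with its sequence. The bait is shown because every join starts in it. It spans chr12:114664780-114664909, is given on the minus strand, which is the direction of transcription, and was assembled from the reads, with each AGCT in capitals. The 300 bases that held the most joins, 46, span chr12:114514698-114514997 and hold 12 AGCT. A 200-base flank on the Cε side of the repeats, chr12:114512740-114512939, held 3 joins and 3 AGCT. AGCT reads the same on both strands.
Bait: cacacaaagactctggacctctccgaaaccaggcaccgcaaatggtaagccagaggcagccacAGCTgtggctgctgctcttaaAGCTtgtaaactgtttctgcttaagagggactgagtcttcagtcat
Sε window with the most joins: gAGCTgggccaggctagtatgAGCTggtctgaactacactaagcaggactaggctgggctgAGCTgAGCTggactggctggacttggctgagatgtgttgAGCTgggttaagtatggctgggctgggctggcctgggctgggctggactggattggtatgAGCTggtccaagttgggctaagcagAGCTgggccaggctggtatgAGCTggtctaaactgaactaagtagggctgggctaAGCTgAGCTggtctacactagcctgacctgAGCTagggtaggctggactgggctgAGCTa
Flank on the Cε side: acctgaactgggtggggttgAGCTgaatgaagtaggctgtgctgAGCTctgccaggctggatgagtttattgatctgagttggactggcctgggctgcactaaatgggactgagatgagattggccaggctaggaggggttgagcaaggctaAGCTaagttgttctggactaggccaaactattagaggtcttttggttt

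Of the 209 joins, 199 (95.2%) lay in the switch repeats and the other 10 on their Cε side. The lowest member lay at position 114510742 and the highest at 114515702. The nearest junctions outside the unit lay at 114504796 and at 114516068. The unit ends within AGCT-rich sequence on the μ side. The next 1000 bases, chr12:114516000-114516999, held 7 joins, and counting them in the unit changed no comparison below by as much as 1.5 times. Reads of insertion and other libraries placed 863 shared words of 40 bases at the same position within ε and 0 elsewhere, so positions in ε needed no shift between genotypes.

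Some libraries were not independent of each other. The file of Iadel library 4 held 3075 reads that are also in libraries 5 or 6 of its genotype. They were dropped from library 4, which removed 6 ε lines. Apart from these reads, the Iadel-i3CBEc libraries held 5 pairs of ε joins with the same position, strand, bait end and overlap in 2 libraries. These 10 joins, of 145 in that genotype (6.90%), came from reads with different prey ends. In the same libraries 13.6% of the joins to the stretch between Sγ2a and Sε, 7.95% of μ joins and 0.507% of junctions outside IgH had such a match. No ε join of the other genotypes had one, where NCdel held 4 ε joins and Iadel 15. In Iadel, 10.5% of 2375 μ joins and 5.27% of 987 γ3 joins had such a match. So did 3.7% of 4953 α joins in NCdel and 0.884% of 2262 in i3CBEc-3CBEdel. In the regions compared, i3CBEc had none. Libraries held 1180 to 3513 junctions and came from 8 sequencing runs. Run 490 held NCdel libraries 1 to 3, Iadel libraries 4 to 6 and all Iadel-i3CBEc libraries, and no other run held 2 genotypes.

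The share of junctions that went to ε was lowest in NCdel and highest in Iadel-i3CBEc. NCdel libraries 1 to 6 had 1, 0, 0, 0, 2 and 1 ε joins, and their shares ran from 0% to 0.121% with a median of 0.0237%. In the 3 libraries at 0 the share may still be up to 0.159% (1886 junctions), 0.160% (1880) and 0.124% (2412), the limit of 3 counts. Iadel libraries 1 to 6 had 1, 4, 3, 1, 5 and 1 joins, and their shares ran from 0.0291% to 0.284% with a median of 0.0867%. The i3CBEc libraries had 4, 2 and 10 joins, or 0.288%, 0.159% and 0.848% of junctions. The Iadel-i3CBEc libraries had 71, 41 and 33 joins, or 3.34%, 2.60% and 2.28%. The i3CBEc-3CBEdel libraries had 5, 12 and 12 joins, or 0.314%, 0.607% and 0.677%. The lowest Iadel-i3CBEc library lay above every library of the other genotypes. Iadel overlapped with both NCdel and i3CBEc, and i3CBEc overlapped with i3CBEc-3CBEdel. Counting error was wide at these depths: the 95% Wilson interval of the highest i3CBEc library was 0.461% to 1.55%, and that of the lowest Iadel-i3CBEc library 1.63% to 3.19%. Reads carried no molecular identifiers, and the intervals and limits given take in counting error alone.

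**Figure D1:**
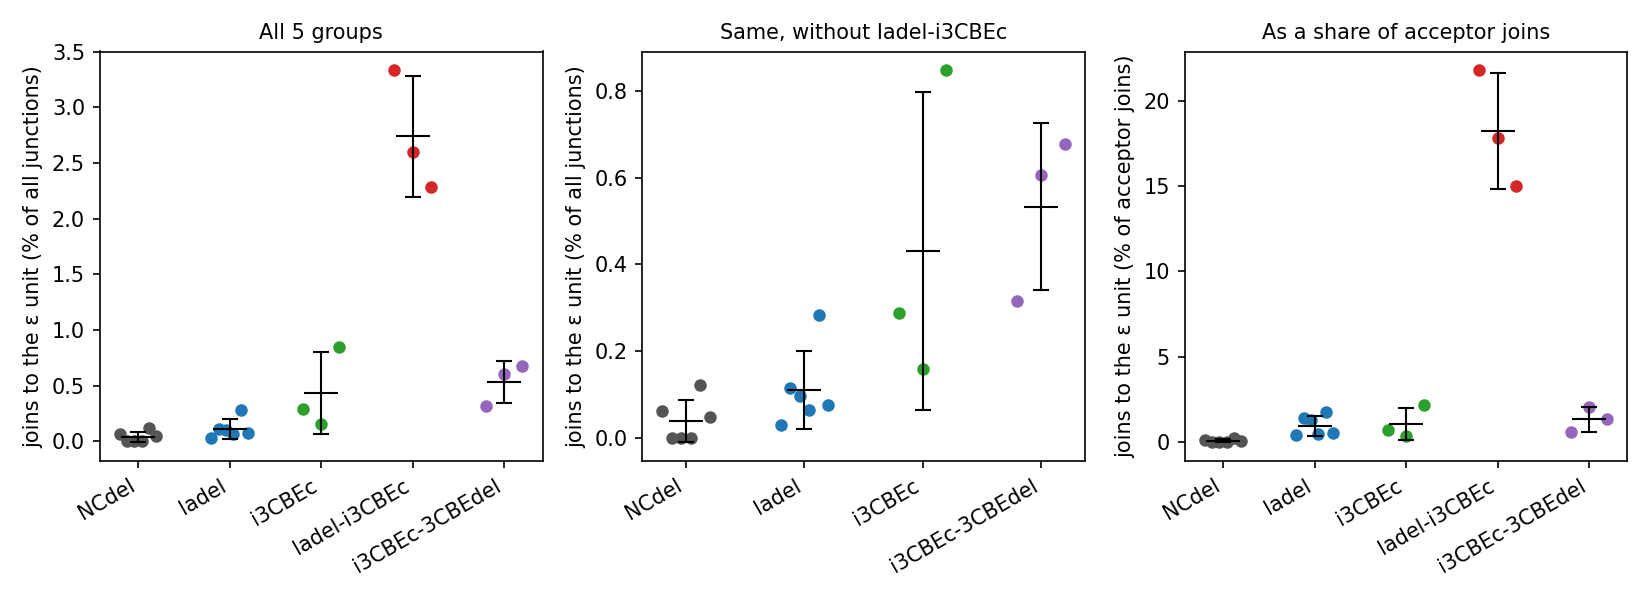
Share of junctions joined to the ε unit, per library (points) with the genotype's mean and SD (bars), as a percent of all junctions (left, and middle without Iadel-i3CBEc) and of the joins to acceptor regions (right). The 3 Iadel-i3CBEc libraries sit at 2.28% to 3.34% of all junctions, above all others.

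Without the insertion, the loss of Iα did not give a difference in ε that passed the test. The mean share was 0.111% ± 0.0897 (SD, n = 6) in Iadel and 0.0384% ± 0.0488 (n = 6) in NCdel. The difference of 0.0725 percentage points, 2.89-fold, had an exact permutation p of 0.0823, or 0.118 after Benjamini-Hochberg adjustment over the 10 regions of the window, 50% of which were called in this comparison. As a share of the junctions inside the IgH window only, ε was at 0.354% ± 0.226 (n = 6) against 0.0548% ± 0.0672 (n = 6), and that difference of 0.299 points passed (adjusted exact permutation p = 0.00812). The α unit is part of this denominator and took a mean of 43.2% of all junctions in NCdel and 0.1055% in Iadel. Shares of other regions thus rise on this scale even where their joins per junction do not change. The 3 libraries of each genotype in run 490 differed by 0.121 points, 6.90-fold, with the smallest p that 3 against 3 allows, 0.1 (exact permutation). Without Iadel library 5 the difference was 0.0379 points, and without NCdel library 5 it was 0.0891 points, 5.09-fold (exact permutation p = 0.0281, adjusted 0.0563).

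With Iα present, the 3 inserted CBEs went with a higher ε share. The mean was 0.431% ± 0.366 (SD, n = 3) in i3CBEc, 11.2-fold that of NCdel, and the groups did not overlap. The difference of 0.393 percentage points had the smallest two-sided exact permutation p that 3 against 6 libraries allow, 0.0119, and an adjusted p of 0.0397. The same test called 30% of the regions, among them the stretch, at a mean of 0.932% in i3CBEc and 0% in NCdel. The call on ε was lost when any library except NCdel library 2 was left out (adjusted exact permutation p from 0.0595 to 0.179). Unadjusted, these fits had the smallest exact permutation p of their designs, 0.0357 without an i3CBEc library and 0.0179 without an NCdel library. Without NCdel library 2, 3 or 4 the unadjusted exact permutation p was 0.0179 each time and the adjusted p 0.0446, 0.0595 and 0.0893, so that these differ through the other regions in the adjustment. With identical joins of a genotype counted once, ε was 11.1-fold higher with an unadjusted exact permutation p of 0.0119 as before, and the adjusted p was 0.0595. No ε join of either genotype had such a match. Without i3CBEc library 3 the difference was 0.185 points, 5.82-fold, and without NCdel library 5 the ratio was 19.8-fold. No run held both genotypes, and an effect of the run cannot be told apart from that of the insertion.

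In Iα-deleted cells the insertion went with a larger rise. The mean was 2.74% ± 0.540 (SD, n = 3) in Iadel-i3CBEc, 24.7-fold that of Iadel, and the groups did not overlap. The difference of 2.63 percentage points had an exact permutation p of 0.0119 and an adjusted p of 0.0238, with 60% of regions called. Within run 490 the difference was 2.60 points, with the smallest p possible there, 0.1 (exact permutation, adjusted 0.111). With identical joins counted once it was 2.59 points (adjusted exact permutation p = 0.0238). The call was lost without Iadel library 2 or any Iadel-i3CBEc library, with differences of 2.33 to 2.86 points over all libraries left out. Each of these fits had the smallest unadjusted exact permutation p of its design, 0.0179 without an Iadel library and 0.0357 without an Iadel-i3CBEc library. Among junctions inside the IgH window only, ε was 14.3-fold higher, at 5.07% ± 1.17 (n = 3) against 0.354% ± 0.226 (n = 6), and still called (adjusted exact permutation p = 0.0238). The μ unit took 36.6% of junctions in Iadel-i3CBEc and 19.2% in Iadel. Per 100 μ joins there were 7.54 ± 1.85 ε joins (n = 3) in the former and 0.633 ± 0.422 (n = 6) in the latter. The stretch between Sγ2a and Sε rose more than ε, from a mean of 0.0736% of junctions in Iadel to 11.4% in Iadel-i3CBEc (exact permutation p = 0.0119, adjusted 0.0238).

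The insertion effect on ε was larger in Iα-deleted cells by 2.24 percentage points. The labels place the 3 CBEs downstream of Cγ2a for Iadel-i3CBEc and give no site for i3CBEc, so that this comparison takes both insertions as the same. This test of the difference between both effects exchanged the Iα labels within insertion status on residuals of the additive model. Counted over all 18480 relabelings, its permutation p was 0.000108, the smallest possible there, or 0.000541 adjusted, with 60% of regions called. Because it permutes residuals, the test is approximate and not exact. The additive fit gives both insertion states a common Iα effect. Its residuals thus set Iadel apart from NCdel although their shares overlapped, and this p may be too small. The stretch had the same p at a larger difference, 10.4 points. On a log2(percent + 0.05) scale the difference for ε was 1.90 and did not pass (adjusted p = 0.0581, permutation of residuals). No run held both i3CBEc and NCdel, so the insertion effect in Iα-bearing cells cannot be told apart from an effect of the run. Between the insertion lines themselves, ε was 6.35-fold higher in Iadel-i3CBEc than in i3CBEc, with no overlap, and 12.3-fold without i3CBEc library 3. That difference of 2.31 points had the smallest p that 3 against 3 libraries allow, 0.1 (exact permutation, adjusted 0.143). No run held both genotypes, and no region could be called in such a design (0%). At an unadjusted p under 0.05 there were 0 as well, while limma on bins, given below, made calls here.

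With the 3′CBEs removed from the insertion line, the ε share differed by less than the spread between libraries. The mean was 0.533% ± 0.192 (n = 3) in i3CBEc-3CBEdel, 1.24-fold that of i3CBEc, and the groups overlapped (difference 0.101 percentage points, exact permutation p = 0.8, adjusted 1, with 0% of regions called). Without i3CBEc library 2 the difference was -0.0349 points, and without i3CBEc library 3 it was 0.309 points, 2.38-fold (exact permutation p = 0.2). Against NCdel the share was 13.9-fold higher, without overlap, with a difference of 0.494 points (exact permutation p = 0.0119, adjusted 0.0397, 30% of regions called). That call was lost without any 1 of the libraries (adjusted exact permutation p from 0.0595 to 0.179). Unadjusted, these fits had the smallest exact permutation p of their designs, 0.0357 without an i3CBEc-3CBEdel library and 0.0179 without an NCdel library. The ratio was 24.5-fold without NCdel library 5. No run held both genotypes of either comparison.

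As part of all joins to acceptor regions (ε, α, the 4 γ regions and the stretch), ε held 18.2% ± 3.41 in Iadel-i3CBEc (n = 3). It held 0.970% ± 0.585 in Iadel (n = 6) and 1.08% ± 0.945 in i3CBEc (n = 3). In NCdel it held 0.0771% ± 0.0951 (n = 6), and in i3CBEc-3CBEdel 1.33% ± 0.735 (n = 3). The ranges of Iadel, i3CBEc and i3CBEc-3CBEdel overlapped on this scale, where α joins make up most of the total in all but the Iα-deleted cells.

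The rise was then placed within the unit in bins of 1000 bases. The 3 bins of the repeats were the ones of ε that held the 10 junctions needed for testing. In the bin from 114513000 there were 0 joins in NCdel, 3 in Iadel, 6 in i3CBEc, 46 in Iadel-i3CBEc and 10 in i3CBEc-3CBEdel. The bin from 114514000 had 3, 10, 10, 73 and 14 in the same order. The bin from 114515000, on the μ side, had 0, 1, 0, 18 and 5, so that it passed the filter only through Iadel-i3CBEc (18 of 24 joins). The middle bin led in every genotype.

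Differences per bin were fitted with limma on log2(junctions per 10000 + 5), over 60 bins of the window, and understate changes of bins with few joins. Between Iadel-i3CBEc and Iadel the bins from 114513000 and 114514000 were higher, with log2 fold changes of 3.80 (SE 0.32) and 3.60 (0.62) and adjusted p of 1.28e-09 and 2.52e-05, where 26.7% of all bins were called higher. Between Iadel-i3CBEc and i3CBEc these 2 bins were again higher, by 2.19 (SE 0.37) and 2.82 (0.72), against 28.3% of all bins. The bin from 114515000 was at 2.51 and 2.62 in these comparisons, but the filter had let it in through the group compared, so both values are a description and support no call. Between i3CBEc and NCdel only the bin from 114513000 was called, at 1.99 (SE 0.32, adjusted p = 2.52e-04, limma), against 8.33% of bins. The bin from 114514000 was at 1.54 (adjusted p = 0.142, limma). Between i3CBEc-3CBEdel and NCdel all 3 were called at 2.24, 1.88 and 1.43, against 30% of bins. Between i3CBEc-3CBEdel and i3CBEc the bin from 114515000 was called at 1.43 (SE 0.41, adjusted p = 0.013, limma), against 16.7% of bins, from 5 joins and 0 joins. With a pseudocount of 10 that call was lost. Between Iadel and NCdel limma called 0 of 3 bins, 0 at an unadjusted p under 0.05, while 28.3% of all bins were called higher.

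Joins were spread over the repeats rather than stacked at a few sites. They took 189 positions, of which 14 held 2 joins and 3 held 3. Some joins at a position were nearly alike within Iadel-i3CBEc library 1. Inversional joins at 114512625 (bait lengths 68 and 69) and at 114514928 (83 and 84) shared their last bait base and overlap. Deletional joins at 114515041 had bait lengths of 70 and 71. Without molecular identifiers, such joins may be copies of the same join, and they were counted separately. The positions with 3 joins were 114513979, 114514096 and 114515041, all of them deletional. Those at 114513979 and 114515041 came from Iadel-i3CBEc libraries 1 and 2, and that at 114514096 from Iadel library 2 and Iadel-i3CBEc libraries 1 and 3. All joins at 114514096 carried inserted bases between bait and prey, 23, 22 and 4 in that order. The Iadel join there also had 3 mismatches in its first 40 prey bases, so that its place in ε is less certain. The first 30 prey bases at the 3 positions are shown, with AGCT in capitals. The nearest AGCT lay 15 bases away, 9 bases away and at the join itself (0), in that order.
Prey from 114513979: tgaactgagcaggactggcctggcctggat
Prey from 114514096: gctgaactgAGCTgAGCTgggctgAGCTgg
Prey from 114515041: AGCTgtgctgggctggtatgAGCTggtcca

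By windows of 500 bases from 114513000 upward, the repeats held 28, 37, 36, 74, 23 and 1 joins. The window from 114514500 to 114514999 held the most. The first 5 windows held 4, 4.4, 3.4, 4 and 0.870 AGCT per 100 bases in the sequence assembled from the reads, and the sixth had 49 bases read. The fullest window was thus not the one with the most AGCT, and the fifth window held 23 joins at the lowest density. Of the 2509 bases of the repeats that were read, 13.4% lay in an AGCT, and 20.1% of the 199 joins in the repeats ended in one. Within 5 bases of an AGCT lay 49.7% of joins and 39.3% of bases. The sequence was itself assembled from the prey of these joins, so these shares are a description. By genotype the median position was 114514072 in NCdel, 114514263 in Iadel, 114514130 in i3CBEc, 114514441 in Iadel-i3CBEc and 114514383 in i3CBEc-3CBEdel.

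**Figure D2:**
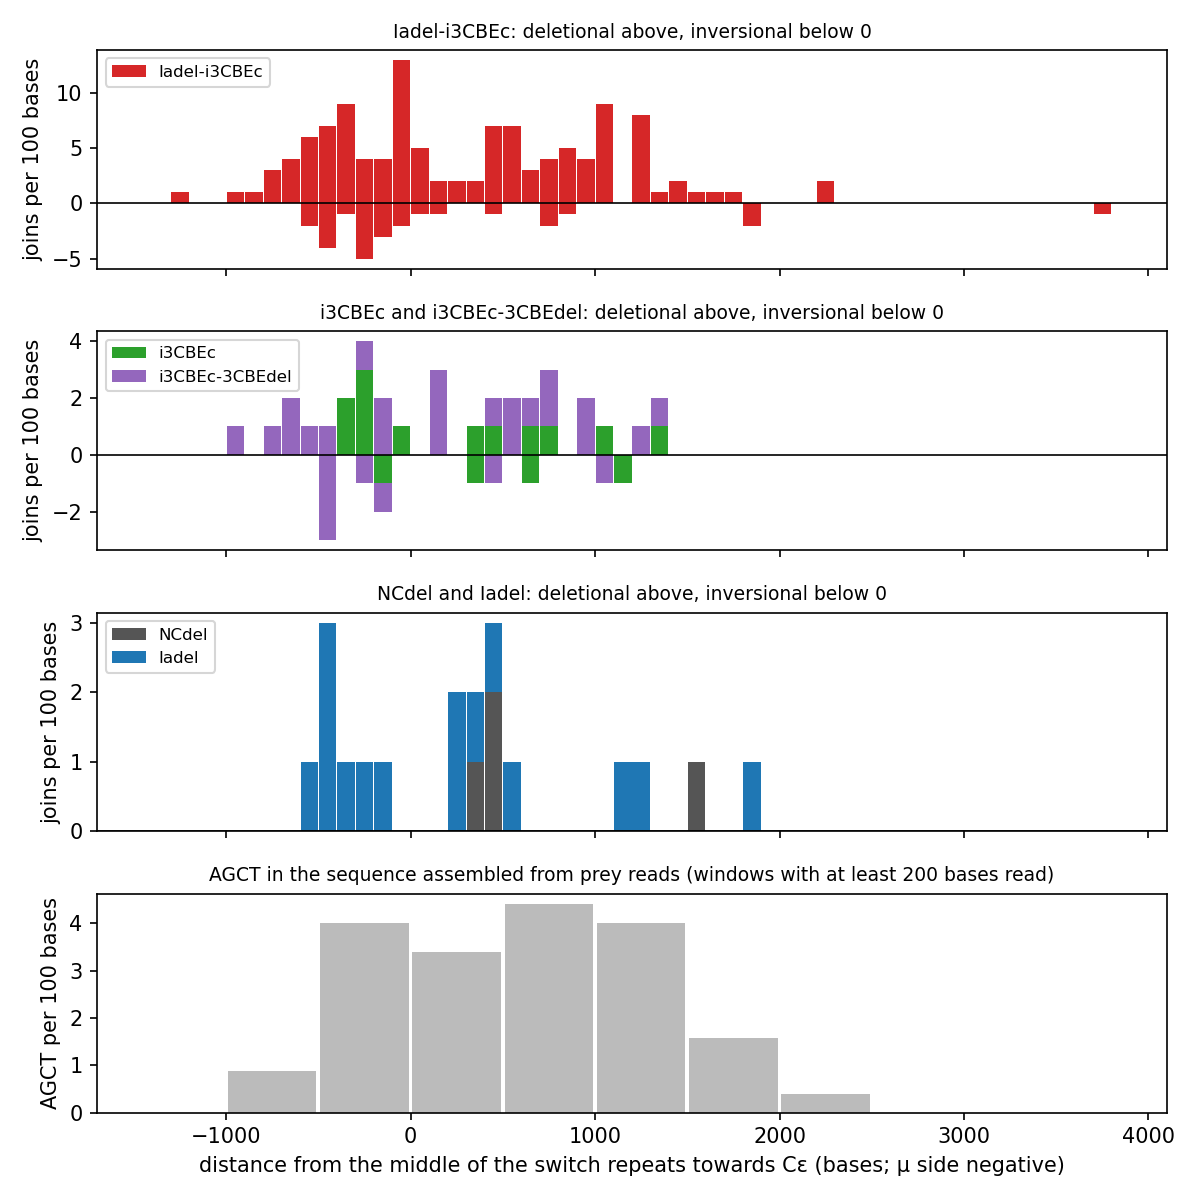
Joins per 100 bases along the ε unit by genotype, with deletional joins above and inversional joins below 0, and AGCT per 100 bases in 500-base windows (bottom), against the distance from the middle of the repeats (bases). Inversional joins appear in the 3 insertion genotypes and not among the 4 joins of NCdel or the 15 of Iadel.

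In a deletional join the prey reads on in the direction of the bait, as in productive switching, and in an inversional join it reads the other way. Of the 209 ε joins, 172 were deletional and 37 inversional (17.7%). NCdel had 0 inversional joins of 4 and Iadel 0 of 15, which allow shares of up to 75% and 20%. i3CBEc had 4 of 16 (25%, Wilson interval 10.2% to 49.5%), Iadel-i3CBEc 26 of 145 (17.9%, 12.5% to 24.98%) and i3CBEc-3CBEdel 7 of 29 (24.1%, 12.2% to 42.1%). By library these were 2 of 4, 0 of 2 and 2 of 10 in i3CBEc. They were 13 of 71, 8 of 41 and 5 of 33 in Iadel-i3CBEc, and 0 of 5, 2 of 12 and 5 of 12 in i3CBEc-3CBEdel. The intervals pool joins over libraries and leave out this spread, so genotypes cannot be compared by them. The few joins of NCdel and Iadel leave their share poorly known. At α, the inversional share was 2.63% of 4953 joins in NCdel, 18.96% of 1503 in i3CBEc and 19.6% of 2262 in i3CBEc-3CBEdel. It was 11.8% of 17 α joins in Iadel and 12.5% of 16 in Iadel-i3CBEc. At γ3 it was 19.2% of 52 joins in NCdel and 5.47% of 987 in Iadel. At μ it was 11.1% in NCdel, 9.3% in Iadel, 18.9% in i3CBEc, 10.6% in Iadel-i3CBEc and 22.8% in i3CBEc-3CBEdel. At α and μ the pooled share was thus higher with the insertion, by little in Iα-deleted cells, and this was not tested. At γ3 the insertion lines held too few joins to compare. Of the 37 inversional ε joins, 21 lay in the window from 114514500 to 114514999, which held 53 of the 172 deletional ones. The median position was 114514624 for inversional and 114514268 for deletional joins.

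The bases at the join were read next. Of the 209 joins, 114 (54.5%) had microhomology, that is an overlap of the aligned bait and prey, 45 (21.5%) were direct and 50 (23.9%) carried inserted bases. Microhomology was found in 0 of 4 joins in NCdel, 6 of 15 in Iadel, 7 of 16 in i3CBEc, 80 of 145 in Iadel-i3CBEc and 21 of 29 in i3CBEc-3CBEdel. The share in i3CBEc-3CBEdel was 72.4% (Wilson interval 54.3% to 85.3%), and that in Iadel-i3CBEc 55.2% (47.1% to 63.0%). Direct joins were 2 of 29 in i3CBEc-3CBEdel (6.90%, 1.91% to 22.0%) and 34 of 145 in Iadel-i3CBEc (23.4%, 17.3% to 30.97%). As with orientation, these intervals pool joins over libraries and leave out the spread between libraries. Genotypes cannot be compared by them, and a difference between genotypes in the kind of join was not tested. Most overlaps were short: 44 joins had 1 base, 25 had 2 and 18 had 3, and the longest had 9. In 6 of the 114 overlaps the bait or the prey had a mismatch, and the other 108 fit both.

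**Figure D3:**
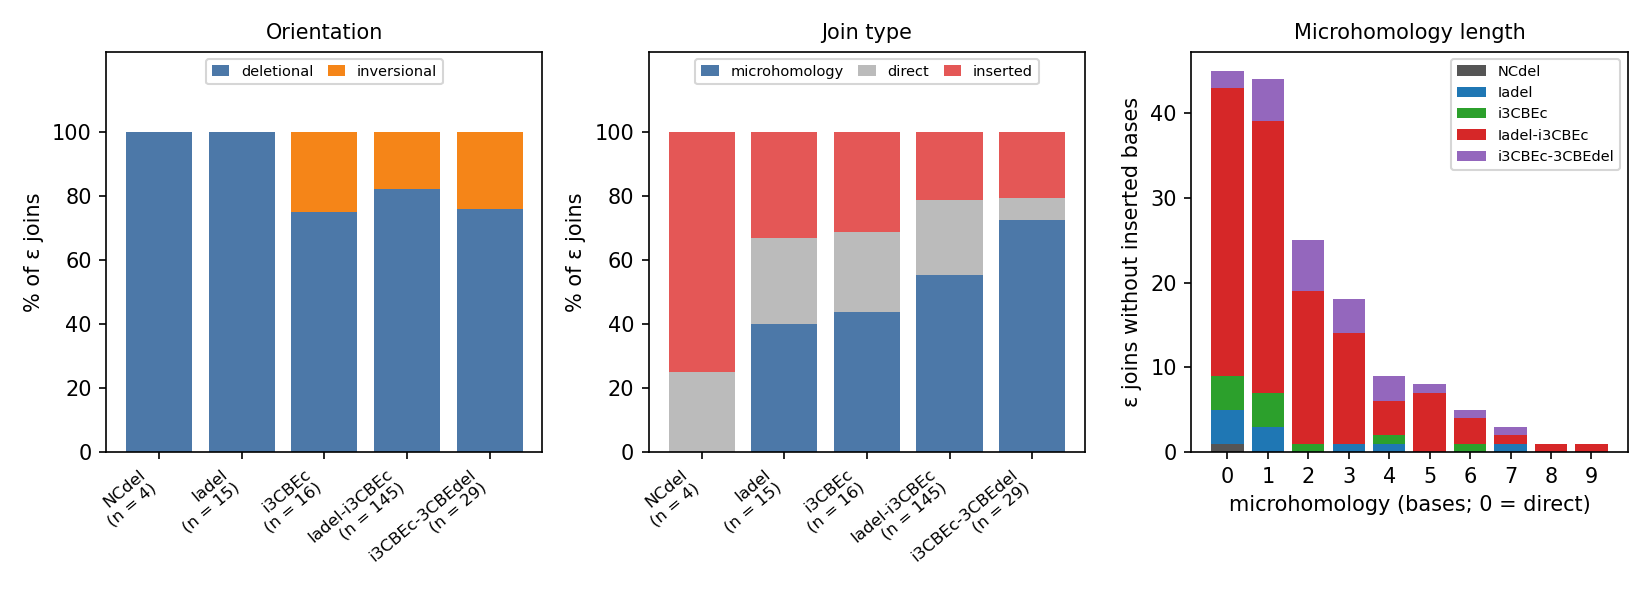
Orientation (left) and kind of join (middle) as a percent of the ε joins of each genotype, and the number of ε joins without inserted bases by length of microhomology (right). NCdel rests on 4 joins, and 1 base was the commonest length of microhomology.

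The longest overlap, one of 7 bases at a position with 3 joins, and 1 of the shared joins show how the ends met. Both overlaps fit bait and prey without a mismatch. In each line the bait comes first and the prey follows. Capitals mark the overlap in the first 2 and the first prey bases of the last, a direct join found in Iadel-i3CBEc libraries 1 and 2. The 7-base overlap starts at the first AGCT of the bait.
Iadel-i3CBEc library 2, 114512834: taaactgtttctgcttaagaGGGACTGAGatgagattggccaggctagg
Iadel-i3CBEc library 1, 114515041: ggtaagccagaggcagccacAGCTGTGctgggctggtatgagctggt
Iadel-i3CBEc libraries 1 and 2, 114513979: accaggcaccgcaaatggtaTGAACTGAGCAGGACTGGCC

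Inserts of 10 or more bases were found in 10 ε joins, with 2 in NCdel, 3 in Iadel, 0 in i3CBEc, 3 in Iadel-i3CBEc and 2 in i3CBEc-3CBEdel. The longest had 25 bases. Of the 10 inserts, 8 held an AGCT and 6 occurred letter for letter in prey reads of the μ unit. Some of these 6 also occurred in prey reads of α or ε, while those printed below occurred in μ only. The AGCT block of μ had 783120 bases read and that of ε 28137. Where the inserts came from was not tested. Of the 4 NCdel joins, 2 carried an insert of 10 or more bases, printed below with the insert in capitals. Both also had 5 mismatches in the first 40 prey bases, so that their place in ε is less certain. Over all joins, 181 (86.6%) had 0 mismatches there and 5 had 3 or more. Without joins that carry 10 or more inserted bases, the ratios to NCdel were 5.04-fold for Iadel, 23.8-fold for i3CBEc and 27.5-fold for i3CBEc-3CBEdel, and no call on a share changed.
NCdel library 5, 114514089: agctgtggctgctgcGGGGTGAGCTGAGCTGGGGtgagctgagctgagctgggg
NCdel library 1, 114514106: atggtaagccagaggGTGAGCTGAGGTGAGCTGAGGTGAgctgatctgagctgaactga
Iadel library 4, 114514921: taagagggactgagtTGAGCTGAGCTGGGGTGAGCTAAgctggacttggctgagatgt

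Features of ε joins were compared with those of other regions within the same library, where each region held at least 5 joins. Against the stretch this left 6 libraries and against μ 8. The 10 tests, by exact permutation of signs, were adjusted together, and none passed. Mean microhomology was 1.71 bases in ε and 1.195 in μ, higher in 7 of 8 libraries (difference 0.516 ± 0.588, SD, exact p = 0.0469, adjusted 0.156). Inserted bases were found in 20.6% of ε and 31.4% of μ joins, with ε higher in 1 of 8 libraries (difference -10.8 ± 11.5 points, exact p = 0.0312, adjusted 0.156). Against the stretch, mean microhomology was 1.54 against 1.17 bases, higher in 5 of 6 libraries (difference 0.361 ± 0.398, exact p = 0.0938, adjusted 0.188). Direct joins made up 18.1% of ε and 29.98% of stretch joins (difference -11.9 ± 12.9 points, exact p = 0.0625, adjusted 0.156). The deletional share differed from the stretch by 10.98 ± 19.4 points (adjusted exact p = 0.469) and from μ by -0.712 ± 12.6 (0.867). With 6 pairs the smallest p is 0.0312, and with 8 it is 0.00781. Several libraries had only 5 to 12 ε joins, and the SDs show how wide these differences are.

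**Figure D4:**
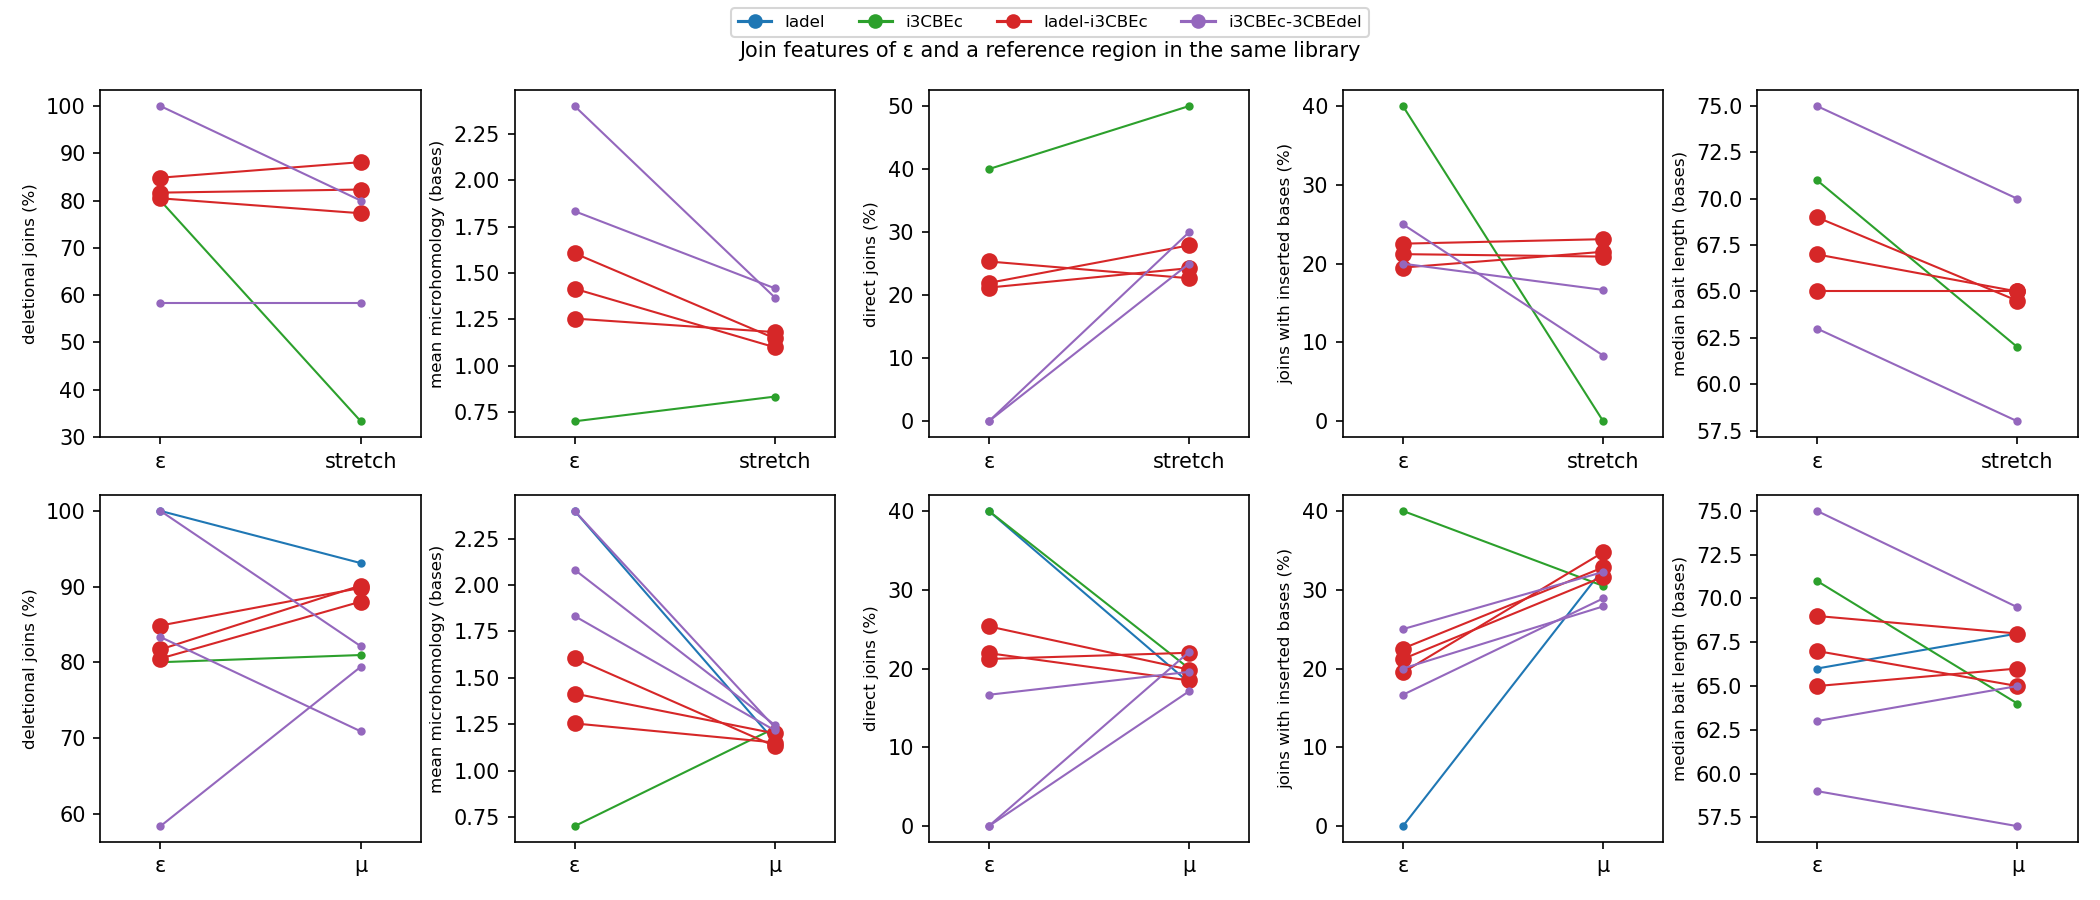
Features of ε joins and of joins to the stretch (top) or μ (bottom) in the same library, joined by a line and coloured by genotype, with large points for libraries with at least 30 ε joins. Mean microhomology was higher in ε than in μ in 7 of 8 libraries, and inserted bases were less frequent in 7.

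The bait ended at a median of 66 bases from its first base in ε joins, with a middle range (quartiles) of 56 to 77. The commonest last base was 64 (12 joins), the first base of the first AGCT, and then 74 (10 joins). The 2 AGCT of the bait lie at bases 64 to 67 and 85 to 88. Bait ends near an AGCT of the bait, within 5 bases, made up 44.0% of ε joins, 44.5% of stretch joins, 43.3% of γ3, 43.1% of α and 40.7% of μ joins, and 18.3% of junctions outside IgH. The ε joins thus lay among the other IgH joins in this respect, without a test. The median bait end in ε exceeded that in the stretch by 4.25 ± 3.06 bases (higher in 5 of 6 libraries, exact p = 0.0625, adjusted 0.156) and that in μ by 1.56 ± 3.33 (adjusted exact p = 0.424, n = 8).

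**Figure D5:**
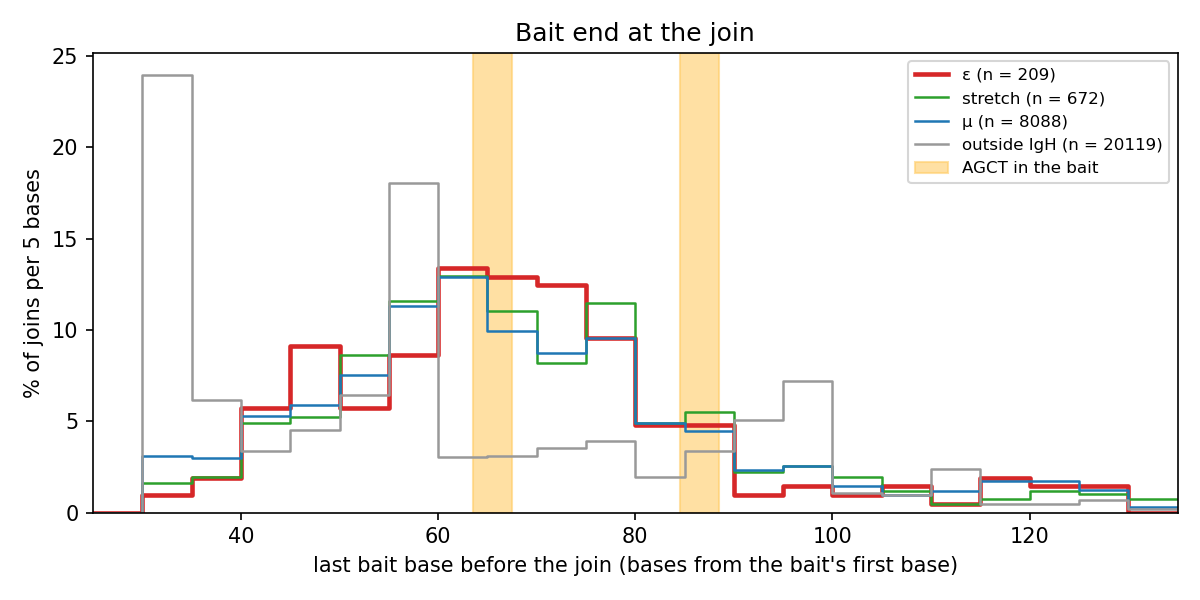
Last bait base before the join, in bases from the bait's first base, as a percent of joins per 5 bases, for ε, the stretch, μ and junctions outside IgH, with the 2 AGCT of the bait shaded. The ε curve peaks by the first AGCT, as do those of the stretch and μ.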

How the data were processed

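The 21 deposited junction tables hold 1 line per junction, and the deposited values are positions and other read coordinates in bases, with no normalisation seen in them. mm9 and Bowtie2 are named per the submitters' processing notes, and further steps are not given in the sources used here. Of 43605 lines, 40530 were used after the repeated reads of Iadel library 4 were dropped. Regions were set between blocks of AGCT found in the prey reads, in a window reaching from the bait 20 kb upstream and 250 kb downstream. Shares are percents of a library's junctions, compared by two-sided exact permutation tests with Benjamini-Hochberg adjustment over 10 regions. The insertion effects were compared by an approximate permutation of residuals, adjusted likewise. Bins with at least 10 junctions were fitted with limma 3.58.1 (R 4.3.3). Other steps used Python 3.11.15, numpy 2.4.6, pandas 2.3.3 and scipy 1.17.1. The bin fit, tested on simulated data with 12 of 60 bins raised 8-fold in Iadel-i3CBEc, recovered 11.95 of them on average with 0.45 false calls. Sites named are the tested bins of ε and positions with at least 3 joins, and the printed joins were chosen after their values were seen. The members and lists were chosen with earlier results of these data known. Alternatives were other denominators, orientations, filters, pseudocounts, pairing and single libraries left out. A widened unit, long inserts left out and identical joins counted once were added after seeing the data.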

Additional observations from a re-analysis of the deposited data

Results flagged for a closer look

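The ε share of Iadel library 5, 0.284% of junctions from 5 joins, stood apart from the other 5 libraries of its genotype by more than Dixon's 95% limit for 6 samples. As a percent of junctions inside the IgH window, Iadel library 5 had 0.622% and library 2 had 0.561%. Per 100 μ joins they had 1.05 and 1.08, and library 5 was flagged on neither scale. Chance flags about 1 in 20 groups on each scale, and several scales were tried.

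The effect of the inserted CBEs on the ε share differed between Iα-deleted and Iα-bearing cells by 2.24 percentage points (permutation of residuals, approximate p = 0.000108, adjusted 0.000541). On the log2 scale it did not pass (adjusted p = 0.0581, permutation of residuals). As said above, the p may be too small and the labels give no insertion site for i3CBEc. No run held both i3CBEc and NCdel.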

How the results depend on the processing

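Of 67 alternative fits of the ε shares other than single libraries left out, 59 kept their direction and their side of the threshold, 7 lost a call and 1 gained one. Fits of 3 against 3 libraries, those within run 490 among them, have a smallest exact permutation p of 0.1 and could give no call. The difference between Iadel and NCdel passed within the IgH window only (0.299 percentage points), where the loss of α joins lowers the denominator. That between i3CBEc-3CBEdel and NCdel was lost with deletional joins only (0.537, adjusted exact permutation p = 0.0595), that between i3CBEc and NCdel with identical joins counted once (0.392), the difference between the insertion effects on the log2 scale (1.90), and that between Iadel-i3CBEc and Iadel within run 490 (2.60). With the replicate block, the differences of i3CBEc and of i3CBEc-3CBEdel from NCdel (0.411 and 0.512, adjusted exact permutation p = 0.417 each) and of Iadel-i3CBEc from Iadel (2.66, adjusted 0.278) were lost. These fits rest on 3 pairs, where the smallest exact permutation p is 0.25, so that no call could be kept. The libraries share only a number: correlations of same-numbered libraries ran from -0.211 to 0.226, and the block changed no count of bins by over 1.5 times. With 1 library left out, the shares ranged from 0.0379 to 0.0891 (Iadel minus NCdel), 0.185 to 0.529 (i3CBEc minus NCdel), 2.33 to 2.86 (Iadel-i3CBEc minus Iadel), 2.01 to 2.54 (Iadel-i3CBEc minus i3CBEc), -0.0349 to 0.309 (i3CBEc-3CBEdel minus i3CBEc), 0.422 to 0.603 (i3CBEc-3CBEdel minus NCdel) and 1.94 to 2.46 (insertion effects). ε bins called ranged from 1 to 2 for i3CBEc minus NCdel and from 0 to 1 for i3CBEc-3CBEdel minus i3CBEc, where a pseudocount of 10 gave 0. Against the stretch, the insertion difference was -0.876 with at least 3 joins and the deletional one -0.197 with at least 10. With at least 3 joins, the differences from μ shrank to 0.236 bases of microhomology and -6.97 points of inserted bases. The median bait end against the stretch shrank to 0.125 bases. Microhomology against the stretch (0.523) and the median bait end against μ (7.32) grew, and none passed after adjustment. Against μ, leaving out 1 library moved the deletional difference from -3.37 to 2.197 points and that of direct joins from -1.998 to 4.27. Where no cause is named above, the cause was not tested. Small counts limit NCdel and Iadel, with 4 and 15 ε joins.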
